A study of Mus musculus with 2 samples.

Results

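Committed oligodendrocyte precursors (COP) are the short-lived cells between the dividing oligodendrocyte precursor (OPC) and the myelin-forming oligodendrocyte. Their nuclei were chosen by marker counts. A nucleus was a member when at least 2 of Bmp4, Enpp6 and Gpr17 were detected and Bcas1 and Tcf7l2 together had at least 3 unique molecular identifiers (UMIs, counted mRNA molecules). It also had to hold at most 1 UMI of the mature oligodendrocyte genes Mog and Aspa, at most 1 of the inhibitory neuron genes Gad1 and Gad2 and none of the astrocyte genes Aqp4 and Gja1. No more than 2 of the division genes Mki67, Top2a, Cenpf, Kif11 and Cenpe could be detected. The rule found 791 nuclei among 48103 that passed the filter on barcodes (at least 500 detected genes and at most 5% mitochondrial UMIs).

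The nuclei came from hippocampi of littermate mice at postnatal day 19, profiled by single-nucleus RNA sequencing. The control library was made from Cicflox/flox mice, in which both alleles of Cic carry recombination sites. The other library, labelled knockout, was made from Emx1-Cre; Cicflox/flox mice, so the floxed alleles were shared by both groups. For each genotype, nuclei of 3 mice (2 males and 1 female, 1 hippocampus per mouse) were pooled into the library. Emx1-Cre acts in the dorsal telencephalic lineage, and cells of other origin in the same tissue, such as microglia and inhibitory neurons, lie outside that lineage. Since each genotype is a single pool, no difference between them could be tested. Intervals are 95% intervals for counting error alone and do not cover the spread between mice or library preparations.

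Cic encodes Capicua, a DNA-binding repressor that holds down genes of the receptor tyrosine kinase and Ras-ERK pathway until ERK signalling inactivates it. Its best known targets are the PEA3 group of ETS transcription factors (Etv1, Etv4 and Etv5) and feedback inhibitors of the Sprouty, Spred and DUSP families. OPCs express many of these genes under growth factor signalling, and the cells leave the precursor state as that signalling declines. Committed precursors then switch on Bmp4, Enpp6 and Gpr17 and, later, the genes of the myelin sheath.

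In the control library 411 of 25060 filtered nuclei were COP nuclei (1.64%, 1.49 to 1.81), and in the labelled knockout 380 of 23043 (1.65%, 1.49 to 1.82). Their median depth was 7283 UMIs and 2733 genes in the control and 6316.5 UMIs and 2525 genes in the labelled knockout. In all they held 3644762 and 2947067 UMIs. The libraries shared 166 filtered barcodes, none of them among COP nuclei. A doublet caller marked 75 control members (18.2%) and 62 members of the labelled knockout (16.3%), which held 32.9% and 32.0% of the UMIs. Both Xist and Y-linked UMIs were found in 12.4% and 16.1% of the members. A UMI of at least 1 of 4 excitatory neuron genes, among them Slc17a7, Neurod2 and Neurod6, was found in 48.4% of control members and 36.3% of those of the labelled knockout, so neuronal RNA was present and differed between the libraries. Cic had 51 UMIs in control COP nuclei (14 CPM, counts per 1e6 UMIs of the class) and 55 (18.7 CPM) in the labelled knockout, a log2 ratio of 0.41 (−0.16 to 0.99). Counts over the whole gene do not show the floxed exons, so the loss of Cic could not be checked, and the second library is called by its label throughout.

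COP nuclei were set beside OPC and mature oligodendrocyte nuclei, which were chosen from the same libraries by Pdgfra, Cspg4 and Vcan and by Mog and Aspa, respectively. In both of these classes at most 1 of Bmp4, Enpp6 and Gpr17 could be detected, so their low levels of these genes also describe the choice. Bmp4, which encodes a secreted bone morphogenetic protein, was at 239 CPM in control COP nuclei and 255 CPM in those of the labelled knockout. It was at 5.32 and 5.95 CPM in OPC nuclei and at 0.628 and 0.676 CPM in mature nuclei. Enpp6, a choline phosphodiesterase gene, was at 724 and 578 CPM in COP nuclei, and Gpr17, an orphan receptor gene, was at 259 and 284 CPM. These genes and Bcas1 (2980 CPM in each library) and Tcf7l2, an effector of Wnt signalling (1306 and 940 CPM), were used by the rule and describe the choice. All 3 of Bmp4, Enpp6 and Gpr17 were detected in 205 control members and 167 of the labelled knockout. The other 206 and 213 members had exactly 2.

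Members just inside the rule, with 3 UMIs of Bcas1 and Tcf7l2 together, numbered 5 in the control and 4 in the labelled knockout. As many nuclei stood just outside at 2 UMIs. Another 20 and 19 nuclei met every other condition but held 2 UMIs of Mog and Aspa. Nuclei with only 1 of Bmp4, Enpp6 and Gpr17 that met the other conditions numbered 357 and 370, at median depths of 6841 and 5663 UMIs.

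Genes that the COP rule did not use were measured at the same 3 stages. Itpr2, which encodes an endoplasmic reticulum calcium channel, was at 1448 and 1296 CPM in COP nuclei, 407 and 402 in OPC nuclei and 87.2 and 108 in mature nuclei. Itpr2 was detected in 98.8% of control members and 96.6% of those of the labelled knockout, and after every nucleus was thinned to 2000 UMIs in 87.3% and 87.1%. Inhibitory neurons, which should lack this marker and had median depths of 18046.5 and 15542 UMIs, showed an Itpr2 UMI in 2.90% and 3.42% of nuclei at the same thinned depth (17.9% and 14.4% unthinned). Itpr2 was not confined to the lineage. In microglia not called as doublets, with their markers at 1 in 1000 UMIs or more, it was at 449 and 529 CPM, above its OPC level. A list of 13 COP genes outside the rule summed to 11641 and 10058 CPM in COP nuclei. The same sum was 1442 and 1581 CPM in OPC nuclei and 2327 and 3046 CPM in mature nuclei. A sum does not describe every member. The kinase gene Fyn was at 2975 and 2772 CPM in COP nuclei against 311 and 349 in OPC nuclei. The long noncoding RNA 9630013A20Rik was at 2749 and 2363 CPM against 52.6 and 64.2. Pdgfra was used to choose the OPC nuclei, so its 35.7 and 52.3 CPM in COP nuclei against 436 and 507 in OPC nuclei describe that choice. Mbp, which encodes myelin basic protein, was at 2854 and 2355 CPM, above the 47.7 and 52.9 of OPC nuclei and below the 7725 and 9278 of mature nuclei.

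**Figure D1:**
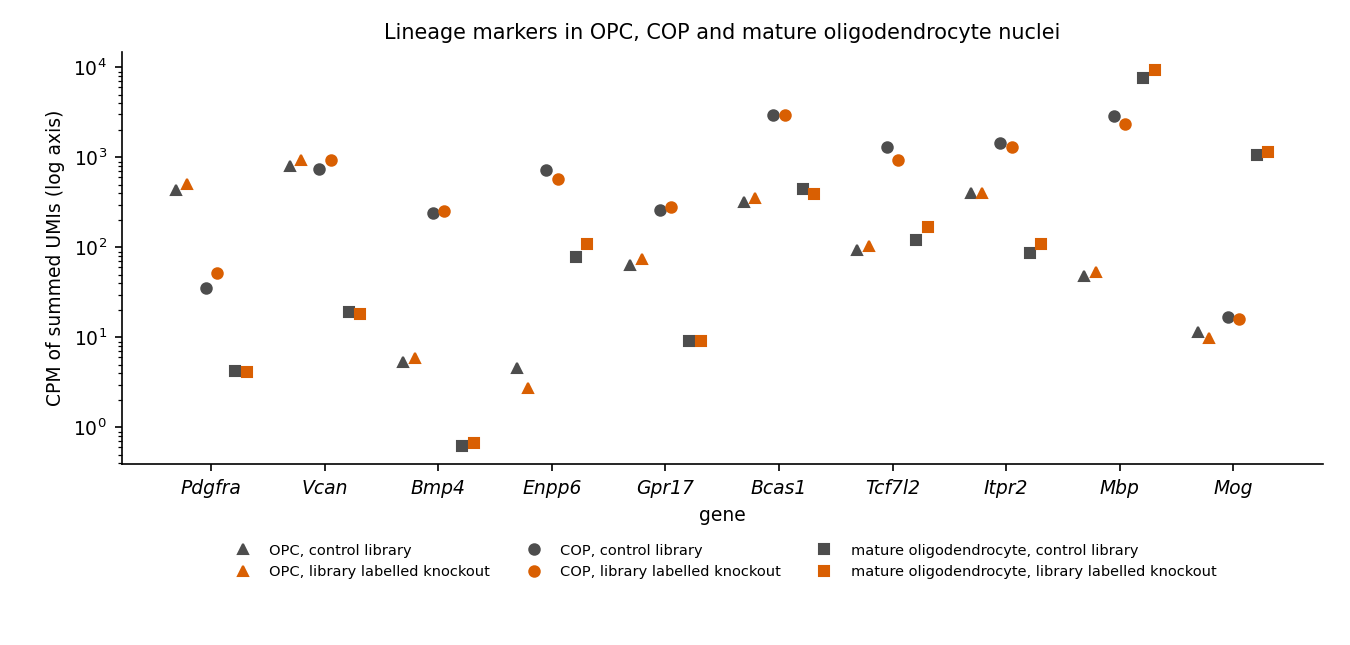
CPM of summed UMIs (log axis) of 10 lineage genes in OPC (triangles), COP (circles) and mature oligodendrocyte nuclei (squares), grey for the control library and orange for the library labelled knockout. Each point is 1 library. Among the plotted classes, Bmp4, Enpp6, Gpr17, Bcas1, Tcf7l2 and Itpr2 were highest in COP nuclei of both libraries. All of these genes except Itpr2 were used to choose the COP nuclei, so their order describes the choice.

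Among nuclei of the 3 stages together, COP nuclei held similar shares of both libraries while their neighbours did not. The COP share of lineage nuclei was 16.1% (14.7 to 17.6) in the control and 16.8% (15.3 to 18.4) in the labelled knockout. OPC nuclei were 34.9% (33.1 to 36.8) and 43.3% (41.3 to 45.4), and mature nuclei were 48.9% (47.0 to 50.9) and 39.8% (37.8 to 41.9). There were 0.462 COP nuclei per OPC nucleus in the control and 0.388 in the labelled knockout. Mature nuclei per COP nucleus were 3.03 and 2.37, but 2.18 and 2.17 in female nuclei alone. Female nuclei, told by Xist and from 1 mouse per library, gave COP shares of 19.8% and 17.0%, and male nuclei gave 15.9% in each library. A share of nuclei does not tell a change in 1 class from an opposite change in the others.

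COP nuclei themselves span a range of maturity, which was measured as the late share. This is the percentage of stage UMIs that came from 8 late genes, among them Mbp, Mobp, Mag, Cldn11, Ugt8a, Cnp and Tspan2. The remainder came from the early genes Pdgfra, Vcan, Lhfpl3, Xylt1, Ptprz1, Megf11, Pcdh15 and Sox6. The median late share was 28.4% in control members (quartiles 10.0 and 61.6) and 20% in members of the labelled knockout (quartiles 8.10 and 49.6). The members were split at shares of 12.2% and 44.6% into an early, a middle and a late group, with 171 and 69 members within 5 percentage points of the lower and the upper boundary. These groups are ranges of a score and not cell types. The early group held 119 control members (29.0%, 24.6 to 33.6) and 145 of the labelled knockout (38.2%, 33.3 to 43.3). The late group held 155 (37.7%, 33.0 to 42.6) and 109 (28.7%, 24.2 to 33.5). In female nuclei the early group was again larger in the labelled knockout (32.5% against 30.9%), but so was the late group (37.7% against 33.1%). The female median was 25.7% in the control and 27.7% in the labelled knockout, and the lower quartile was 9.70% and 8.63%. In male nuclei the median was 34.5% and 16.8%.

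**Figure D2:**
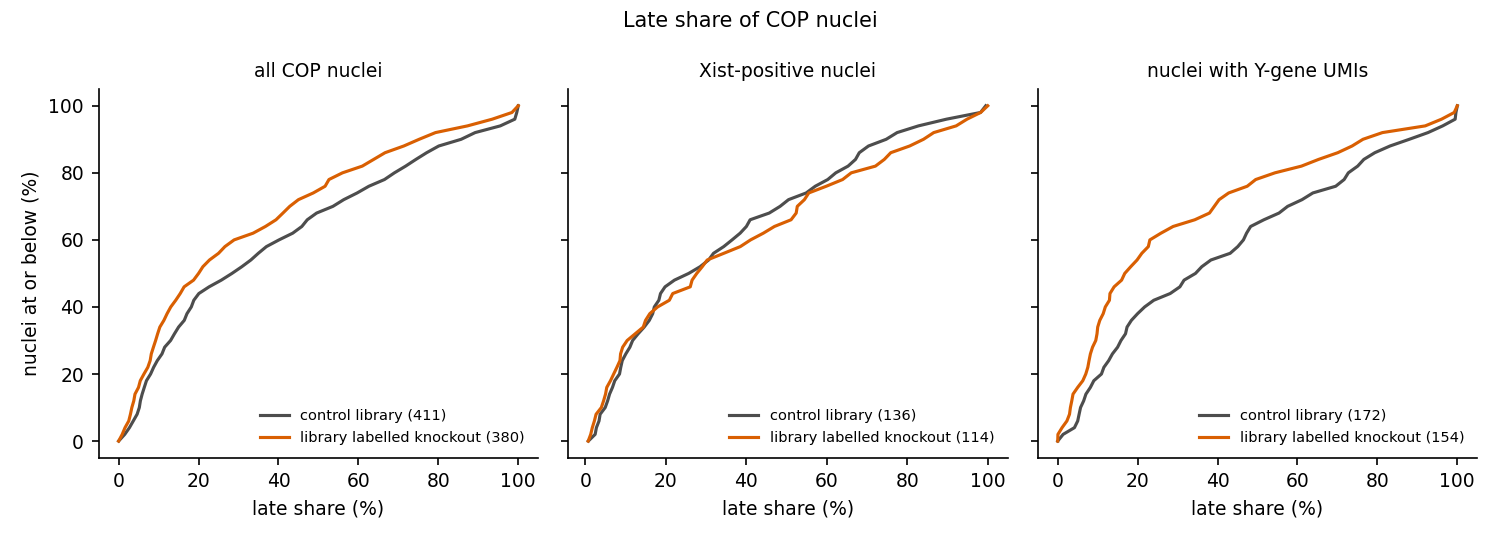
Cumulative share of COP nuclei (vertical axis, %) at or below each late share (horizontal axis, %), for all nuclei and for nuclei called female by Xist or male by Y-linked UMIs, grey for the control library and orange for the library labelled knockout. In all nuclei and in male nuclei the labelled knockout lies at lower late shares at the median. In female nuclei the curves cross, and the labelled knockout lies at higher late shares in the upper part.

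A list of 17 genes known as Capicua targets was higher as a group in COP nuclei of the labelled knockout. Its summed level went from 387 to 1205 CPM. Of the 12 members with at least 20 UMIs over both libraries, 10 had a ratio above 0, and their median log2 ratio was 2.07, beside a median of 0.04 over all 12487 genes with that minimum. Genes with 50 UMIs and 10 CPM or more in the library of the higher level were compared, and those 2-fold apart or more were counted as higher or lower. By this rule of size, which is no test, 5 of the 8 target genes with the minimum counts rose and none fell. Over all 7830 genes with the minimum counts, 71 (0.907%) were higher and 26 (0.332%) were lower. In female nuclei alone 5 of 6 target genes were higher, beside 40 higher (1.13%) and 65 lower (1.83%) of 3554 genes. In male nuclei alone 5 of 7 were, beside 53 (1.24%) and 76 (1.77%) of 4284 genes. Without called doublets 6 of 8 were, beside 59 (0.947%) and 32 (0.514%) of 6227 genes. The same list had 7 of 8 genes higher in mature nuclei, beside 1.63% of all genes, and 1 of 12 in OPC nuclei, beside 0.382%. The list was put together with results of these libraries known, so its direction is not independent evidence.

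All 3 PEA3 factors rose in COP nuclei of the labelled knockout. Etv4 had 23 UMIs in control COP nuclei (6.31 CPM) and 394 in those of the labelled knockout (134 CPM), and its log2 ratio was 4.38 (3.80 to 5.08). Etv5 also had 23 UMIs in the control (6.31 CPM) and had 259 in the labelled knockout (87.9 CPM), with a log2 ratio of 3.77 (3.18 to 4.48). Etv1 went from 134 UMIs (36.8 CPM) to 749 (254 CPM), with a log2 ratio of 2.78 (2.52 to 3.07). Their ratios in female and in male nuclei alone were 3.92 and 4.29 for Etv4, 3.55 and 4.49 for Etv5 and 2.75 and 3.21 for Etv1. Each sex within a library is a part of the same pool and adds no replicate.

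An adaptor and a feedback inhibitor of the Ras-ERK pathway rose as well. Shc3 encodes an adaptor that links receptor tyrosine kinases to Ras. It had 76 UMIs in the control (20.9 CPM) and 473 in the labelled knockout (160 CPM), and its log2 ratio was 2.94 (2.59 to 3.31). Spred3 belongs to a family of membrane proteins that restrain Raf activation. It had 36 UMIs (9.88 CPM) and 126 UMIs (42.8 CPM), with a log2 ratio of 2.10 (1.57 to 2.69). Spred3 overlaps Ggn on the opposite strand, and the strand used in counting is not given in the sources used here.

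The rest of the target list did not pass the rule of size over all COP nuclei. In female nuclei alone Shc4 passed it (121 and 211 UMIs, 1.24), and in male nuclei alone Spred2 did (36 and 57 UMIs, 1.12). Spred3 was under the minimum counts in each sex (32 UMIs in female and 46 in male nuclei of the labelled knockout). The 5 higher target genes in each sex were therefore not the same 5 as over all COP nuclei. Spred2, with 143 and 231 UMIs, stood just under the required fold at 1.00 (0.69 to 1.31). Without called doublets its ratio was 1.83 (1.30 to 2.42). Shc4 had 397 and 616 UMIs (0.94, 0.76 to 1.13), and Spred1 had 484 and 571 (0.54, 0.37 to 0.72). Ccnd1, the gene of cyclin D1, had 14 and 48 UMIs (2.05, 1.20 to 3.06), and Spry4 had 4 and 21 (2.56, 1.13 to 4.70), both under the minimum counts. Other feedback inhibitors were low in COP nuclei of both libraries. Spry2 had 39 and 30 UMIs (−0.07, −0.81 to 0.65), Spry1 had 17 and 11 (−0.30, −1.56 to 0.86) and Dusp6 had 8 and 7 (0.13, −1.58 to 1.77). Dusp4 (6 and 8 UMIs), Dusp5 (3 and 2), Maff (1 and 6) and Fosl1 (2 and 0) had too few UMIs to compare.

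In the control the measured levels of the 3 PEA3 genes and Shc3 were lower at each step from OPC to late COP nuclei. The step from middle to late rests on few UMIs, 5 and 2 for both Etv4 and Etv5 and 11 and 11 for Shc3. Intervals overlap at that step for these genes. Control Etv4 was at 80.2 CPM in OPC nuclei, then 16.4 CPM in early, 4.12 in middle and 1.37 in late COP nuclei, and at 2.36 in mature nuclei. In the labelled knockout it was at 162 CPM in OPC nuclei, 169, 133 and 95.6 in the COP groups and 43.7 in mature nuclei. Control Etv1 went from 168 CPM in OPC nuclei through 82.2, 28.9 and 13.0 to 40.1 in mature nuclei, against 216, 290, 308, 163 and 116 in the labelled knockout. Early COP nuclei of the control thus already lay below OPC nuclei in Etv1 and Etv4. In the labelled knockout Etv1 was above the OPC level there, while Etv4 differed from it by less than counting error (169, 145 to 196, against 162, 152 to 172). For Shc3, the control went from 154 CPM in OPC nuclei through 55.5, 9.07 and 7.54 to 14.5 CPM, against 216, 172, 155, 153 and 117 CPM in the labelled knockout.

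The difference between libraries was accordingly smallest in OPC nuclei. The log2 ratios of Etv4 were 1.01 in OPC, 4.38 in COP and 4.19 in mature nuclei, those of Etv5 were 0.97, 3.77 and 3.24, and those of Etv1 were 0.36, 2.78 and 1.53. Those of Shc3 were 0.49, 2.94 and 3.00 and those of Spred3 0.60, 2.10 and 2.61. Within COP nuclei the Shc3 ratio was 1.62 (1.19 to 2.10) in the early group, 4.04 (3.22 to 5.13) in the middle and 4.28 (3.46 to 5.37) in the late group. The Etv1 ratio was 1.81 (1.46 to 2.19), 3.40 (2.90 to 3.96) and 3.61 (2.96 to 4.42). Spred3 did not follow this order, at 2.25 (1.36 to 3.38), 2.28 (1.35 to 3.43) and 1.42 (0.44 to 2.49). The late ratio of Etv4 rests on 2 control UMIs (5.81, 4.23 to 9.19). All of these classes were taken from the same 2 libraries, and differences between their ratios were not tested.

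**Figure D3:**
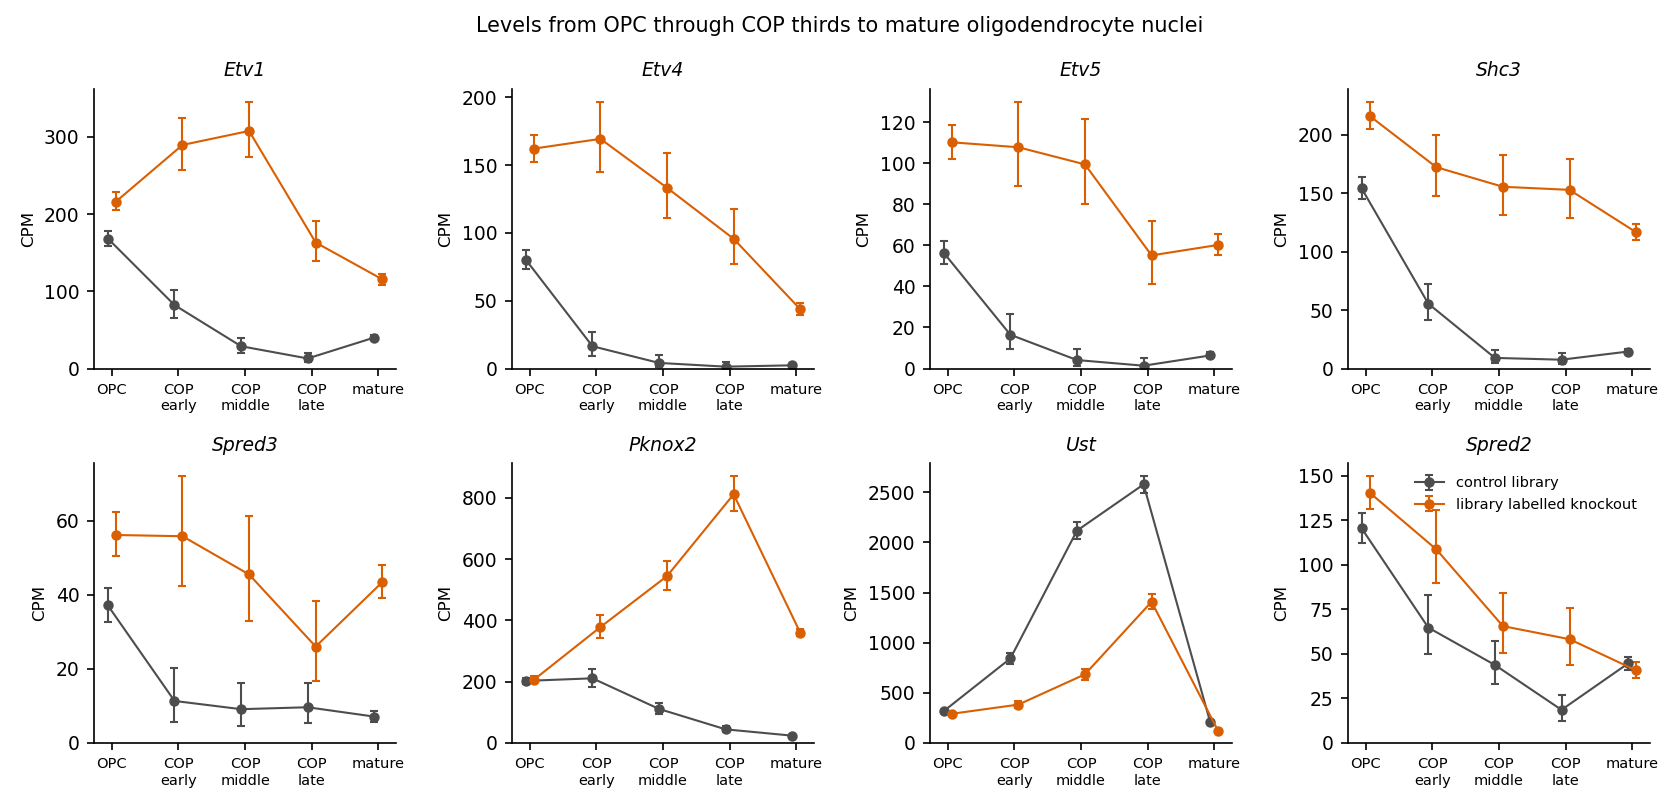
CPM of 8 genes in OPC nuclei, in early, middle and late COP nuclei and in mature oligodendrocyte nuclei, grey for the control library and orange for the library labelled knockout. Bars are exact Poisson intervals (95%) for counting error. Etv1, Etv4, Etv5 and Shc3 are low in middle and late COP nuclei of the control only, and Ust is lower in all 3 COP groups of the labelled knockout.

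The difference was spread over many nuclei. For the 5 target genes past the rule of size (Etv1, Etv4, Etv5, Shc3 and Spred3), each nucleus was thinned to 2000 UMIs. At least 1 of them was then detected in 48 of 411 control COP nuclei (11.7%, 8.74 to 15.2) and in 273 of 379 of the labelled knockout (72.0%, 67.2 to 76.5), with 1 nucleus left out as too shallow. Without thinning the shares were 32.1% and 89.5%. At least 2 of the genes were detected in 1.70% (0.687 to 3.48) and 29.6% (25 to 34.4) of the thinned nuclei. These genes were picked for their difference between the libraries, so the shares describe how it was distributed. Among nuclei not called as doublets, at least 2 of the genes were detected in 1.49% of control COP nuclei and 31.2% of those of the labelled knockout, against 27.6% and 39.9% of OPC nuclei. In mature nuclei the shares were 0.105% and 10.7%. In each library the COP share lay below the OPC share and above the mature share. Because the 5 genes were chosen by their difference in COP nuclei, the shares do not place these nuclei nearer to either stage. A test of these differences was not possible.

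**Figure D4:**
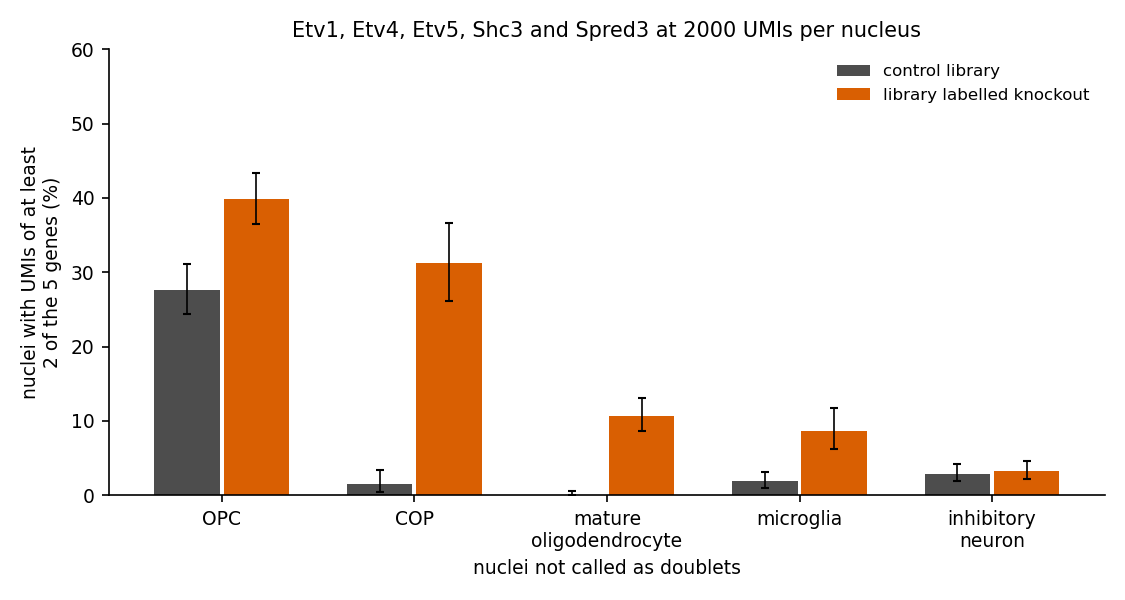
Share of nuclei (%) in which at least 2 of Etv1, Etv4, Etv5, Shc3 and Spred3 were detected at 2000 UMIs per nucleus, in nuclei not called as doublets, grey for the control library and orange for the library labelled knockout. Bars are exact binomial (Clopper-Pearson) intervals (95%) for counting error. The COP share is 1.49% in the control and 31.2% in the labelled knockout.

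Cells outside the Emx1 lineage gave the background for these genes. In microglia all 5 genes had ratios above 0, and in inhibitory nuclei Shc3 did not differ beyond counting error. Microglia not called as doublets, with their markers at 1 in 1000 UMIs or more, had a median depth of 2240.5 UMIs in the control and 1816 in the labelled knockout. At least 2 of the 5 genes were detected in 1.88% (1.00 to 3.19) and 8.72% (6.24 to 11.8) of them after thinning, which left out 437 and 667 shallower nuclei. Inhibitory nuclei gave 2.89% and 3.25%. Of the whole target list, 1 of 6 genes passed the rule of size in the same microglia and 9 of 12 were above 0 (median 0.49), where 11 of 7550 genes (0.146%) were higher and 17 (0.225%) lower. By a wider rule for microglia, which also took deep nuclei with neuronal genes, 5 of 9 passed and 13 of 15 were above 0 (median 0.66), where 68 of 9648 genes (0.705%) were higher and 15 (0.155%) lower. Etv4 was at 3.46 CPM (9 UMIs) and 34.4 CPM (72 UMIs) in microglia, a log2 ratio of 3.25 (2.31 to 4.50), and at 2.97 and 19.2 CPM in inhibitory nuclei, 2.69 (2.29 to 3.13). The other inhibitory ratios were smaller, at 0.76 (0.55 to 0.98) for Etv1, 0.31 (0.13 to 0.48) for Etv5, 0.38 (0.21 to 0.56) for Spred3 and 0.00 (−0.09 to 0.09) for Shc3. Etv5 was higher in control microglia (48.8 CPM) than in control COP nuclei (6.31 CPM), and its microglial ratio was 0.95 (0.62 to 1.29). Etv1 was at 103 and 160 CPM in microglia (0.63, 0.39 to 0.87), Shc3 at 3.85 and 12.4 CPM (1.65, 0.59 to 2.91) and Spred3 at 6.92 and 14.3 CPM (1.03, 0.16 to 1.98). In the labelled knockout the COP level exceeded the microglial level for Etv4 (134 against 34.4 CPM), Etv1 (254 against 160) and Shc3 (160 against 12.4), but not for Etv5 (87.9 against 94.6). RNA set free in the nuclear suspension reaches all droplets, and its part in the COP ratios was not tested.

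Capicua binds short octamers, and the 250 bases before each transcription start were searched for them because the genes that rose include its known targets. The motifs TGAATGAA, TGAATGGA, TCAATGAA and TCAATGGA were counted on both strands in 32851 RefSeq promoters (build GRCm38.p6). At least 1 of the 4 was present in 3.19% of all promoters. Among the genes higher in COP nuclei, 50 of 71 had a promoter in the table, and 5 of their 67 promoters (7.46%) held a motif, those of Bcl2, Entpd1, Hsd11b1, Ptpn5 and Spred3. The genes lower in COP nuclei had 0 of 36, too few promoters to tell from the 2.01% of all genes with the minimum counts. On the target list 11 of 17 genes matched, and 4 of 15 promoters (26.7%) held a motif, those of Dusp6, Shc4, Spred3 and Spry2. Of all genes with the minimum counts, 163 of 8117 promoters (2.01%) did. A match is a string of letters and not a binding site. Promoters are shown for Spred3 and Ptpn5, which rose, and for Shc4 and Spry2, targets that did not pass the rule of size over all COP nuclei. They read 5′ to 3′ on the strand of the gene, with the motif in capitals, and end at the base before the start site.
Spred3: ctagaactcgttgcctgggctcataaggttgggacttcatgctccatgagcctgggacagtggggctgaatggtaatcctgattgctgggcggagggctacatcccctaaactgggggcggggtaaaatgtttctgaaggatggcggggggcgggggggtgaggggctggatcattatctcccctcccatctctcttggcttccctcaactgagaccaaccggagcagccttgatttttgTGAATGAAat
Ptpn5: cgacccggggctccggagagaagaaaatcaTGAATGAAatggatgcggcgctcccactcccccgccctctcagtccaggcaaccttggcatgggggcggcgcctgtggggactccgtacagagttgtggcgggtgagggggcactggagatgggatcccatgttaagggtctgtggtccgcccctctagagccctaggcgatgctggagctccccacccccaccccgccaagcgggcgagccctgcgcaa
Shc4: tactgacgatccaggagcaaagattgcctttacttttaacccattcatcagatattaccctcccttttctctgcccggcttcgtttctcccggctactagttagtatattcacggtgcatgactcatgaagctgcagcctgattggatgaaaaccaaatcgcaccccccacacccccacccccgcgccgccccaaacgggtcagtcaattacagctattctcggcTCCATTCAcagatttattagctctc
Spry2: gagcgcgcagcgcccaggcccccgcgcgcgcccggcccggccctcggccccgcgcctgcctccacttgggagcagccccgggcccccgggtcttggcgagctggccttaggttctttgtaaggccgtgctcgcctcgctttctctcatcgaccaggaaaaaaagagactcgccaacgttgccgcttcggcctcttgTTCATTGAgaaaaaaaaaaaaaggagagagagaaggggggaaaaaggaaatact
These stretches lie on the minus strand at chr7:29168648-29168897 (Spred3), chr7:47132599-47132848 (Ptpn5), chr2:125724149-125724398 (Shc4) and chr14:105896820-105897069 (Spry2) of GRCm38.p6. The Spred3 promoter holds TGAATGAA on the strand of the gene, beginning 10 bases before the start, and the Ptpn5 promoter holds it 220 bases before. In the Shc4 and Spry2 promoters the match lies on the other strand, as TGAATGGA in Shc4 (25 bases before the start) and TCAATGAA in Spry2 (54 bases before), and the capitals show its complement.

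Genes outside the target list also rose in COP nuclei of the labelled knockout. Of the 71 higher genes, 66 had the same direction in both sexes and 40 were past 2-fold in both. Without called doublets 53 of the 71 were past 2-fold, and 5 had the opposite direction. Pknox2, which encodes a TALE homeodomain transcription factor, had 403 UMIs in the control (111 CPM) and 1689 in the labelled knockout (573 CPM), a log2 ratio of 2.37 (2.22 to 2.53). Its ratio was 0.03 in OPC nuclei and 3.95 in mature nuclei. Within COP nuclei the control level of Pknox2 was 211, 111 and 43.9 CPM in the early, middle and late groups, whereas that of the labelled knockout was 378, 545 and 812 CPM. Pknox2 thus went down with the late share in the control and up in the labelled knockout, with ratios of 0.84 (0.60 to 1.09), 2.30 (2.02 to 2.59) and 4.2 (3.84 to 4.60). In microglia Pknox2 had 23 and 11 UMIs. After thinning, a Pknox2 UMI was found in 18.7% and 56.5% of COP nuclei (unthinned 44.3% and 82.6%) and in 1.30% and 0.917% of those microglia. Pknox2 overlaps Gm3896 and Gm48716 on the opposite strand.

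Dkk2 and Gm597 had large ratios in mature oligodendrocytes but too few UMIs in COP nuclei to compare. Dkk2, which encodes a secreted Wnt modulator, had 5 and 2 UMIs in COP nuclei against 27 and 877 in mature nuclei. Gm597 had 0 and 1 UMIs in COP nuclei against 2 and 661 in mature nuclei. Of genes with the minimum counts, 141 of 8660 (1.63%) were higher and 167 (1.93%) lower in mature nuclei, and 36 of 9422 (0.382%) were higher and 27 (0.287%) lower in OPC nuclei. These classes differ in depth and number of nuclei, which bears on how many genes reach the minimum counts.

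Fgf1, which encodes a fibroblast growth factor, was the only gene of the growth factor list past the rule of size over all COP nuclei. It had 12 UMIs (3.29 CPM) and 86 UMIs (29.2 CPM), with a log2 ratio of 3.10 (2.27 to 4.16). Gm5820, which overlaps Fgf1 on the opposite strand, had 18 and 132 UMIs (3.15, 2.46 to 3.98), and how reads in the overlap were assigned is not given in the sources used here. The transcript 9630014M24Rik had 40 and 434 UMIs (11 and 147 CPM), a ratio of 3.73 (3.28 to 4.25). Its ratios were 1.24 in OPC and 3.43 in mature nuclei. Adamtsl1, which encodes a secreted ADAMTS-like matrix protein, had 105 and 759 UMIs (28.8 and 258 CPM), a ratio of 3.15 (2.86 to 3.47). Adamtsl1 overlaps Sh3gl2 on the same strand. Gpnmb, the gene of a membrane glycoprotein, had 10 and 56 UMIs (2.73, 1.81 to 3.93), and the ETS factor gene Ets1 had 15 and 68 (2.45, 1.67 to 3.40). Their ratios in OPC nuclei were −0.09 and 0.43. Fndc1 had 29 and 94 UMIs (1.99, 1.39 to 2.66), and the secreted neuropeptide precursor gene Vgf had 18 and 58 (1.97, 1.21 to 2.85). The serotonin receptor gene Htr2c had 70 and 321 UMIs (2.50, 2.13 to 2.90), but its ratio was −1.21 without the nuclei called as doublets. Of the 71 higher genes, 64 had at least 10 UMIs in microglia, and 12 of those were at least 2-fold higher there too, among them Etv4, Shc3, Spred3, Adamtsl1, 9630014M24Rik and Vgf. Over all genes compared in COP nuclei, 7679 had as many microglial UMIs, and 77 of those were at least 2-fold higher in microglia. What this overlap stems from was not tested.

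Several better covered genes past the rule of size were picked after their values were seen, for their course through the 3 stages. Itgb8, the gene of an integrin subunit that activates TGF-beta, had 167 and 485 UMIs (45.8 and 165 CPM), a ratio of 1.84 (1.59 to 2.11). It was 0.91 (0.51 to 1.33) in early, 2.24 (1.71 to 2.83) in middle and 2.45 (2.02 to 2.92) in late COP nuclei, beside 0.16 in OPC and 1.99 in mature nuclei. Pde7b, a cyclic AMP phosphodiesterase gene, had 319 and 808 UMIs (87.5 and 274 CPM), a ratio of 1.65 (1.46 to 1.84). Control Pde7b was at 481 CPM in OPC nuclei, 223, 49.5 and 28.8 CPM in the COP groups and 32.3 CPM in mature nuclei. In the labelled knockout it was at 478 CPM in OPC nuclei, 299, 286 and 236 CPM in the COP groups and 21.6 CPM in mature nuclei. Its ratios in the COP groups were 0.42 (0.17 to 0.68), 2.52 (2.12 to 2.96) and 3.02 (2.56 to 3.55), beside −0.01 (−0.08 to 0.06) in OPC and −0.58 (−0.83 to −0.33) in mature nuclei. Ptpn5, a tyrosine phosphatase gene that acts on ERK among others, had 48 and 125 UMIs (1.68, 1.20 to 2.20), beside 0.24 in OPC and −0.12 in mature nuclei. Ptpn9, the gene of another protein tyrosine phosphatase, had 226 and 455 UMIs (1.31, 1.08 to 1.55), with like ratios of 1.32, 1.29 and 1.30 in the 3 COP groups.

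**Figure D5:**
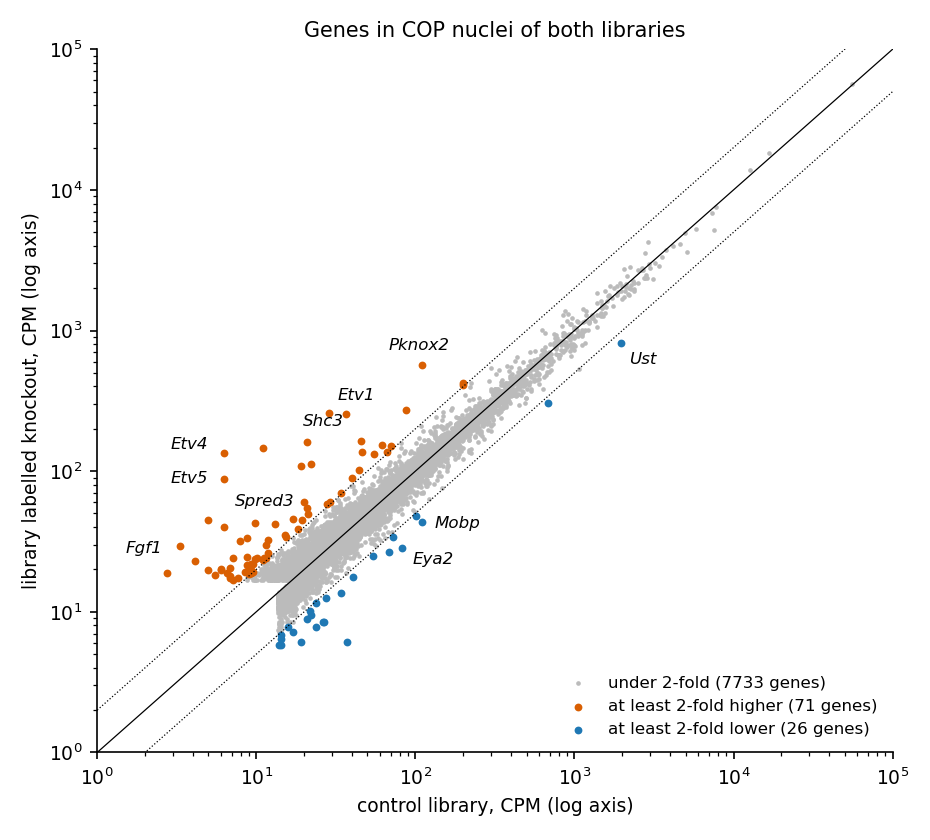
CPM of each gene with the minimum counts in COP nuclei of the control library (horizontal, log axis) and of the library labelled knockout (vertical, log axis). Orange points are the 71 genes at least 2-fold higher, blue points the 26 at least 2-fold lower, grey points the rest, and dotted lines mark 2-fold. Etv4, Etv5, Etv1, Shc3 and Pknox2 lie far above the diagonal, and Ust lies below it.

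Of the 26 genes that fell, Ust had the most UMIs. In female or male nuclei alone, as given above, lower genes outnumbered higher ones. Of the 26, 21 had the same direction in both sexes and 11 were past 2-fold in both. Without called doublets 16 of the 26 were past 2-fold, and 3 had the opposite direction. Ust encodes uronyl 2-sulfotransferase, which sulfates chondroitin and dermatan chains. It had 7149 UMIs in control COP nuclei (1961 CPM) and 2396 in those of the labelled knockout (813 CPM), a log2 ratio of −1.27 (−1.34 to −1.20). The ratio was −1.30 in female and −1.37 in male nuclei, and −0.13 in OPC and −0.81 in mature nuclei. Control Ust went from 316 CPM in OPC nuclei to 841, 2118 and 2579 CPM in early, middle and late COP nuclei and to 206 CPM in mature nuclei. In the labelled knockout the same order gave 289, 381, 683, 1407 and 118 CPM. Ust thus peaked in late COP nuclei of both libraries, at a lower level in the labelled knockout.

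Eya2, which encodes a phosphatase and transcriptional co-activator, had 299 UMIs in the control (82.0 CPM) and 84 in the labelled knockout (28.5 CPM), a ratio of −1.52 (−1.89 to −1.17). It was low at the neighbouring stages, with 1.58 and 5.31 CPM in OPC nuclei and 2.67 and 2.82 CPM in mature nuclei. Eya2 was detected in 34.3% of control COP nuclei and 12.9% of those of the labelled knockout (13.4% and 4.22% after thinning), and in 0.289% of thinned control microglia. Eya2 overlaps Gm28163 on the opposite strand. Mex3b, an RNA-binding protein gene, had 79 and 30 UMIs (−1.08, −1.75 to −0.47), with ratios of −0.04 in OPC and −0.28 in mature nuclei.

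Several of the genes that fell were also lower at the neighbouring stages. 4921539H07Rik had 135 and 18 UMIs (−2.57, −3.40 to −1.89), with ratios of −3.09 in OPC and −3.27 in mature nuclei. Tafa1, which encodes a secreted neuronal protein, had 2472 and 902 UMIs (−1.15, −1.26 to −1.04), with −0.41 in OPC and −1.66 in mature nuclei. The Tafa1 ratio was −0.88 without called doublets and −0.19 in nuclei with no UMI of the 4 excitatory neuron genes. Htr1f (97 and 25 UMIs) had a ratio of −1.63 (−2.35 to −1.0), Glis3 (125 and 40) −1.33 (−1.89 to −0.81) and Robo3 (52 and 19) −1.12 (−1.99 to −0.36). Ctxnd1 (51 and 17 UMIs) had a ratio of −1.25 (−2.16 to −0.46) and Gm14636 (76 and 26) −1.22 (−1.94 to −0.58). The ratios of Glis3 and Ctxnd1 were 0.05 and 0.29 without called doublets. All 8 excitatory neuron markers had ratios below 0 in COP nuclei, and their summed level was 614 CPM in the control and 480 CPM in the labelled knockout. Their part in these lower values was not tested.

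Of the 13 COP genes outside the rule for nuclei, 12 had the minimum counts and none passed the rule of size over all COP nuclei, beside 0.907% higher and 0.332% lower over all genes. Their median log2 ratio was −0.23, and 11 of 13 were below 0. In male nuclei the median was −0.27, also with 11 of 13 below 0. In female nuclei it was 0.08, with 8 of 12 above 0. Cemip2, chosen after its values were seen, was higher in female nuclei (1.12, against −0.06 in male nuclei). All 13 genes of the OPC list had at least 20 UMIs, 11 had ratios above 0, and none passed the rule of size over all COP nuclei, with a median log2 ratio of 0.29. The median was 0.27 in female nuclei, where 9 of 13 were above 0, and 0.47 in male nuclei, where all 13 were. Ptprz1, a receptor phosphatase gene, was at 871 and 1373 CPM (0.66, 0.59 to 0.72), and the adhesion gene Megf11 had 298 and 430 UMIs (0.83, 0.62 to 1.05). Megf11 passed the rule of size in male nuclei (1.20) and without called doublets (1.01). Both genes were chosen after their values were seen. The adhesion gene Tnr was at 7799 and 7546 CPM, the transcription factor gene Sox6 at 2103 and 2052, and Lhfpl3 at 1476 and 1618. Of 18 myelin genes with 20 UMIs, 12 had ratios below 0, with a median of −0.22. The direction was not the same in all nuclei. The median was 0.25 in female nuclei, where 9 of 12 genes were above 0, and −0.25 in male nuclei, and it was 0.19 in the middle group, where 8 of 10 were above 0. Mbp (−0.28) and the autotaxin gene Enpp2 (−0.11) differed by less than 2-fold. Mobp, a structural myelin gene, fell from 404 to 128 UMIs (−1.35, −1.65 to −1.06), with −0.07 in female and −1.46 in male nuclei. Several genes of both lists also form the late share, which was lower in the labelled knockout. Of the 24 lineage transcription factors, 17 had the minimum counts and none passed the rule over all COP nuclei (median −0.20 over the 20 with 20 UMIs). In female nuclei 1 of 15 was lower and in male nuclei 1 of 15, beside 1.83% and 1.77% of all genes. Zeb2 had a ratio of −0.22, St18 of −0.26 and Sox10 of 0.08.

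Signalling lists around the Ras-ERK pathway were set beside all genes, of which 0.907% were higher and 0.332% lower in COP nuclei. At such shares a list of this length would hold few genes past the rule of size in any case. The 20 core Ras-ERK genes had a median log2 ratio of −0.04, and none of the 16 with the minimum counts passed the rule of size. The most abundant, the Ras GTPase activator gene Nf1, had 2059 and 2092 UMIs (0.33), followed by Braf (−0.04). Of the growth factor list, 16 genes had 20 UMIs, with a median of 0.12, and Fgf1 alone of the 13 with the minimum counts passed the rule. The receptor gene Fgfr1 had 84 and 129 UMIs (0.92, 0.52 to 1.34), and its ratio was 1.59 without called doublets, 1.73 in female and 1.19 in male nuclei. Without called doublets Fgfr1 was past the rule of size and Fgf1 was under the minimum counts. Fgfr1 was chosen after its values were seen. The neuregulin receptor gene Erbb4 had 10175 and 10441 UMIs (0.34). Medians were 0.01 for 15 Wnt pathway genes, −0.12 for 14 BMP pathway genes and 0.15 for 18 Notch pathway genes. They were 0.10 for 20 sterol synthesis genes, 0.08 for 20 cytoskeleton genes, 0.04 for 34 guidance genes and −0.03 for 23 channel genes. No member of these 7 lists passed the rule of size over all COP nuclei, beside 0.907% higher and 0.332% lower over all genes. Some members did in subsets. Of the channel genes, 4 of 22 were lower in female nuclei (median −0.36), 2 of 22 in male nuclei and 1 of 22 without called doublets, where 1.83%, 1.77% and 0.514% of all genes were. Of the guidance genes, 1 of 20 was lower in female nuclei, 1 of 24 was higher and 3 lower in male nuclei, and 2 of 26 were higher and 1 lower without called doublets. Of the cytoskeleton genes, 1 of 14 was higher in male nuclei and 1 of 17 without called doublets. Beside these counts and those of the guidance genes, 1.24% of all genes were higher in male nuclei and 0.947% without called doublets. The sterol median was 0.48 in female nuclei. The Wnt genes Apc (0.03) and Tcf7l1 (−0.55) and the guidance receptor genes Unc5c (0.03) and Dcc (0.53) were among the most abundant. For 9 replication genes outside the rule the median was 0.62, and none of the 4 with the minimum counts passed the rule of size. Of the activity and handling genes only 3 had 20 UMIs, Jun (52 and 35), Nr4a1 (36 and 48) and Btg2 (17 and 17). Only 1 of these, Jun, had the minimum counts, and it did not pass.

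No marker of other cell types passed the rule of size over all COP nuclei, though excitatory neuron markers with the minimum counts were lower in female nuclei (2 of 3, against 1.83% of all genes) and in male nuclei (1 of 5, against 1.77%). The 7 microglial genes summed to 145 CPM in the control and 200 CPM in the labelled knockout, and all 6 with at least 20 UMIs had ratios above 0. The direction turned in male nuclei, where the sum was 160 and 128 CPM and 5 of 6 were below 0, while in female nuclei it was 102 and 202 CPM. The 7 astrocyte genes summed to 347 and 328 CPM, and the 8 inhibitory neuron genes to 882 and 987 CPM, most of it Adarb2 (706 and 807 CPM). The 7 vascular genes summed to 19.2 and 11.5 CPM, with Cldn5 at 0 UMIs in both libraries and Flt1 at 5 and 0. The part of these cells' RNA in the COP ratios was not tested.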

How the data were processed

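UMI counts per gene and barcode, not normalized, were deposited as 10x Genomics matrices, and the matrix headers name the Cell Ranger run that made these counts. Cell Ranger 8.0.1 and build mm39 are named in the submitters' processing notes. Members and gene lists were chosen with earlier results of these data known. UMIs were summed per library and class and scaled to CPM, and the log2 ratio is labelled knockout over control with 0.5 UMI added to each sum. Rule genes, mitochondrial genes, Xist, Tsix and Y-linked genes (736 rows) were left out of the counts of genes. Intervals are exact Poisson for levels, conditional binomial for ratios and Clopper-Pearson for shares. Library and genotype coincide and cannot be told apart.

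OPC nuclei had a Pdgfra UMI, at least 3 UMIs of Pdgfra, Cspg4 and Vcan and at most 1 of Bmp4, Enpp6 and Gpr17 detected. Mature nuclei had at least 3 UMIs of Mog and Aspa, at most 1 of Bmp4, Enpp6 and Gpr17 detected and at most 1 UMI of Pdgfra and Cspg4. Both classes met the limits of the COP rule on Gad1, Gad2, Aqp4 and Gja1. OPC nuclei also met its limits on Mog and Aspa and on the division genes. Microglia had at least 3 UMIs of Csf1r, Cx3cr1 and P2ry12, and inhibitory nuclei at least 5 of Gad1 and Gad2. Since the microglia rule also took deep nuclei with neuronal genes, singlets with those markers at 1 in 1000 UMIs were used, a choice made after seeing the data, as was leaving called doublets out of these classes. Female nuclei had at least 2 Xist UMIs and none of Uty, Kdm5d, Ddx3y and Eif2s3y, and male nuclei no Xist UMI and at least 1 of the others. Doublets were called per library with Scrublet (expected rate 0.1) and kept, except in an alternative. Free RNA was not removed, except in an alternative.

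Genes were named by rule: Cic, the marker genes, the target list, up to 15 higher and 10 lower genes with the largest ratios that were 2-fold apart in both sexes, and the members past the rule of size and 3 most abundant members of each other list. Names outside it are given as such or by a count of 5 or fewer. Genes that overlap were taken from GENCODE for GRCm38, which held 31961 of 33696 identifiers, and no coordinates of mm39 are given. Python 3.11.15, numpy 2.4.6, scipy 1.17.1, pandas 2.3.3, scanpy 1.11.5, anndata 0.12.19 and matplotlib 3.10.9 were used, and the scripts were tested on simulated data. Alternatives covered doublets, sex, depth, scaling, free RNA, stage weights, minimum counts, the rule and the filter. Values of 3 genes are not reported here.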

Additional observations from a re-analysis of the deposited data

Results flagged for a closer look

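The median late share was lower in male COP nuclei of the labelled knockout. In female nuclei it was slightly higher there, while the female lower quartile was lower (9.70% in the control and 8.63% in the labelled knockout). The difference of medians, labelled knockout minus control, was 2.00 percentage points in female COP nuclei (1 mouse per library) and −17.7 points in male nuclei (2 mice per library), and the difference between the sexes was not tested.

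Fam107b had a log2 ratio of −1.37 in COP nuclei and 1.04 in mature oligodendrocyte nuclei, past 2-fold in opposite directions, and the difference was not tested. Within COP nuclei, Creb5 had a ratio of 1.36 in female and −1.15 in male nuclei, and Gpc3, a glypican gene on the X chromosome, had −3.26 and 2.67. These differences were not tested either, since each sex of a library comes from 1 or 2 mice.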

How the results depend on the processing

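No paired analysis was possible because each group is 1 library. Counts of genes past the rule of size moved most. Higher and lower genes numbered 40 and 65 in female nuclei alone, 31 and 12 after thinning, 215 and 45 after subtraction of the expected free RNA (37.6% of control and 31.9% of labelled knockout UMIs, an upper estimate), and 201 and 105 with 20 UMIs and no CPM minimum. Male nuclei alone gave 53 higher and 76 lower genes, and lower genes numbered 57 with all 3 of Bmp4, Enpp6 and Gpr17 detected. The target list median was 3.83 after free RNA was subtracted and between 1.52 and 2.38 otherwise. The COP share was 1.96% in control female nuclei. With all 3 of those genes detected it was 0.818% in the control and 0.725% in the labelled knockout, and without any excitatory neuron UMI 0.846% and 1.05%. The median late share was 27.7% in female nuclei of the labelled knockout and 34.5% in male control nuclei.

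Named genes past the rule of size turned direction in a few settings. Htr2c was at −1.21 without doublets and −1.22 without excitatory neuron UMIs, Glis3 (0.051) and Ctxnd1 (0.29) were above 0 without doublets, and Gm14636 was at 0.96 (−1.69 to 4.58) after thinning. The cause was not tested. After free RNA was subtracted, Htr1f (0.20), Glis3 (0.20) and Ctxnd1 (0.20) had 0 UMIs left in both libraries and 4921539H07Rik (0.50) had 0 and 0.11, so these values come only from the 0.5 UMIs added to each count and compare nothing. Without doublets 59 genes were higher and 32 lower, of which 34 and 14 were shared with the counts above. Median-of-ratios scaling moved all ratios by 0.04.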

Other observations

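Further genes passed the rule of size in COP nuclei, and those given here were chosen after their values were seen. Kitl, the gene of stem cell factor, had 22 UMIs in the control library and 58 in the library labelled knockout (log2 ratio 1.69, 0.97 to 2.48), with 2.37 in female and 1.02 in male nuclei. Gap43, a growth cone gene, had 73 and 178 UMIs (1.59, 1.19 to 2.01), and the ratio was 1.86 without called doublets. Scel had 168 and 402 UMIs (1.56, 1.30 to 1.83), and the potassium channel interacting protein gene Kcnip1 had 201 and 393 (1.27, 1.03 to 1.53). Their ratios in OPC nuclei were 0.46 and 0.67. Hsd11b1, which encodes an enzyme that regenerates active glucocorticoid, had 20 and 54 UMIs (1.72, 0.98 to 2.56), but in microglia outside the Emx1 lineage it had 12 and 49 (2.30).

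Among lower genes, Plekhg3 had 96 and 25 UMIs (−1.61, −2.33 to −0.99), with ratios of 0.25 in OPC and 0.00 in mature nuclei, and Tunar had 87 and 34 (−1.04, −1.67 to −0.46), with −0.03 and −0.11. Il1rapl2 had 81 and 331 UMIs (2.33, 1.98 to 2.71), but its ratio was −0.23 without called doublets and −0.59 in male nuclei.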
